A study of Mus musculus with 18 samples.

Results

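The insulin-like growth factor (IGF) binding proteins and the IGF receptors were followed as a set of 8 genes, taken by symbol from the 34591 gene symbols counted in every library: Igfbp2, Igfbp3, Igfbp4, Igfbp5, Igfbp6, Igfbp7, Igf1r and Igf2r. All 8 symbols were present, and 4 of them (Igfbp4, Igfbp7, Igf1r and Igf2r) carried at least 1315 counts in each of the 18 libraries. The cells were 4T1, a mammary carcinoma line from BALB/c mice, kept in RPMI medium with fetal calf serum, and poly(A)-selected RNA was sequenced. The 6 groups of 3 libraries were parental cells given 2 ng/mL recombinant human TGFb1 in fresh medium for 24 h, parental cells left untreated in fresh medium for 24 h, a puromycin-selected stable line carrying a lentiviral Wisp1 vector on plastic, a puromycin-selected line carrying the empty lentiviral vector (EV) on plastic, the Wisp1 line on type I collagen, and the EV line on type I collagen. The stable lines were harvested subconfluent. Each vector was represented by 1 stable line, so libraries within a group are cultures of the same line, and p-values measure the spread between cultures.

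IGF1 and IGF2 signal through IGF1R, a receptor tyrosine kinase that recruits IRS adaptors and drives the PI3K and AKT pathway. IGF2R, the cation-independent mannose 6-phosphate receptor, does not carry a kinase: it takes IGF2 to lysosomes and sorts newly made lysosomal enzymes. IGFBP2 to IGFBP6 bind IGFs with high affinity outside the cell, where they can hold the ligand away from the receptor or, once cut by proteases, release it, while IGFBP7 binds IGFs weakly. TGF-beta is a growth factor known for inducing extracellular matrix genes and mesenchymal traits in carcinoma cells. Wisp1 belongs to the CCN proteins of the matrix, which carry an IGFBP-type module at the N-terminus.

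The bases before the annotated start sites of the 4 expressed genes are shown because these genes moved in different directions. They are RefSeq promoter windows on GRCm38.p6, 5′ to 3′ on the strand of the gene, covering the 150 bases before the start site, with capitals marking the motif matches given after them. Igfbp4 lies at chr11:99041094-99041243 on the plus strand, Igfbp7 at chr5:77408046-77408195 on the minus strand, Igf1r at chr7:67952107-67952256 on the plus strand and Igf2r at chr17:12769707-12769856 on the minus strand.
Igfbp4: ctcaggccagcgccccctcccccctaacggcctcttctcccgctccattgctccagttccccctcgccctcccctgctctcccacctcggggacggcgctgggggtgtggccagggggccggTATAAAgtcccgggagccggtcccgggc
Igfbp7: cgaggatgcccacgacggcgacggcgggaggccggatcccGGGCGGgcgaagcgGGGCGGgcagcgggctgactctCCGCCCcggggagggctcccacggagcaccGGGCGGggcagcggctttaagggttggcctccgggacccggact
Igf1r: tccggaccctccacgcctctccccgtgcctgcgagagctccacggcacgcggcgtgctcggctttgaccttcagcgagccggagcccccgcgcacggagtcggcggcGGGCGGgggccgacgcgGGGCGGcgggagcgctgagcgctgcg
Igf2r: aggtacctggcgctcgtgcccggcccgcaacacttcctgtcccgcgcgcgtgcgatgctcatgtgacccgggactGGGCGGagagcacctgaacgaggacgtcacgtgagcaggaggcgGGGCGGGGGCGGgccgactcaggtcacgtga
In the whole window of 250 bases before to 50 after the start, Igfbp4 held 1 TATA box (TATAAA, position -28) and 0 GC boxes (GGGCGG, on either strand). Igfbp7 held 4 GC boxes, Igf2r 3 and Igf1r 2, and these 3 windows held 0 TATA boxes. GC boxes were found in 35.7% and TATA boxes in 13.6% of 32851 such windows of mouse genes. None of the 4 windows held the SMAD CAGA box (CAGACA, in 21% of all windows), the SMAD palindrome (GTCTAGAC, 0.213%), the AP-1 site (TGANTCA, 7.81%) or the forkhead site (GTAAACA, 3.65%), searched on both strands. The GC content was 71.3% for Igfbp4, 73.3% for Igfbp7, 76% for Igf1r and 70.7% for Igf2r, against a median of 52.67% over all windows. These are matches of letters in windows set by annotated start sites, and neither binding nor start-site use was measured. Bases just after the start site were found in a GENCODE M21 transcript of the gene for Igfbp4 and Igfbp7. They were not found for Igf1r and Igf2r, so the positions in those windows rest on the RefSeq start alone.

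Gene counts per library ran from 37.55 to 94.4 M, and 3 counts, taken as the floor of detection, correspond to 0.0318 to 0.0799 CPM (counts scaled to library size). Epithelial markers (Krt8, Krt18, Krt7, Krt19, Epcam, Cdh1 and Cldn7) summed to 3075 to 5886 CPM in each library. The fibroblast list of 8 genes summed to 56.6 to 70.2 CPM with TGFb1 and 36.1 to 59.5 CPM in untreated cells, most of it Pdgfra. Genes of that list differed: Thy1 was at 0 in all 18 libraries, and Dcn and Lum stayed at 7 counts or fewer. Pdgfra had 14.3 to 61.2 CPM and Col1a1 0.259 to 16.1 CPM over the libraries. Leukocyte markers summed to 4.14 to 12.4 CPM and endothelial markers to 0.574 CPM at most. The overexpressed gene followed the labels: Wisp1 averaged 953 ± 96.8 CPM in the Wisp1 line and 51.6 ± 17.9 CPM in the EV line on plastic, and 1099 ± 35.8 CPM and 15.5 ± 1.13 CPM in those lines on collagen (SD, n = 3 each).

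Across the set, levels differed by orders of magnitude. On the scale of CPM per kilobase of the longest coding transcript, which allows genes to be compared, Igfbp4 stood at 106 ± 15.6 with TGFb1 and 237 ± 24.3 in untreated cells, and Igfbp7 at 164 ± 70.3 with TGFb1 and 39.2 ± 17.6 in untreated cells (SD, n = 3 each). On the same scale Igf2r stood at 23.9 ± 3.18 with TGFb1 and 40.3 ± 9.01 in untreated cells, and Igf1r at 2.83 ± 0.232 with TGFb1 and 3.12 ± 0.208 in untreated cells. Igfbp4 was thus the leading binding-protein transcript in untreated cells. The binding-protein transcripts of these cultures came almost entirely from 2 genes, Igfbp4 and Igfbp7, whose proteins differ in their affinity for IGFs. Protein was not measured. Igfbp7 made up 59 ± 10.1% of the summed length-scaled level of Igfbp4 and Igfbp7 with TGFb1 and 13.9 ± 5.42% in untreated cells. Scaled by coding length, an alternative chosen after the data were seen, that share was 27.6 ± 8.46% with TGFb1 and 4.01 ± 1.74% in untreated cells. In the stable lines the share by transcript length was 24.2 ± 2.76% in Wisp1 and 26.5 ± 4.35% in EV on plastic, and 14.3 ± 2.49% in Wisp1 and 13.6 ± 1.96% in EV on collagen. The order of the 2 transcripts with TGFb1 therefore turned with the length used, while both lengths gave a higher Igfbp7 share in every TGFb1 library than in every untreated library.

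**Figure D1:**
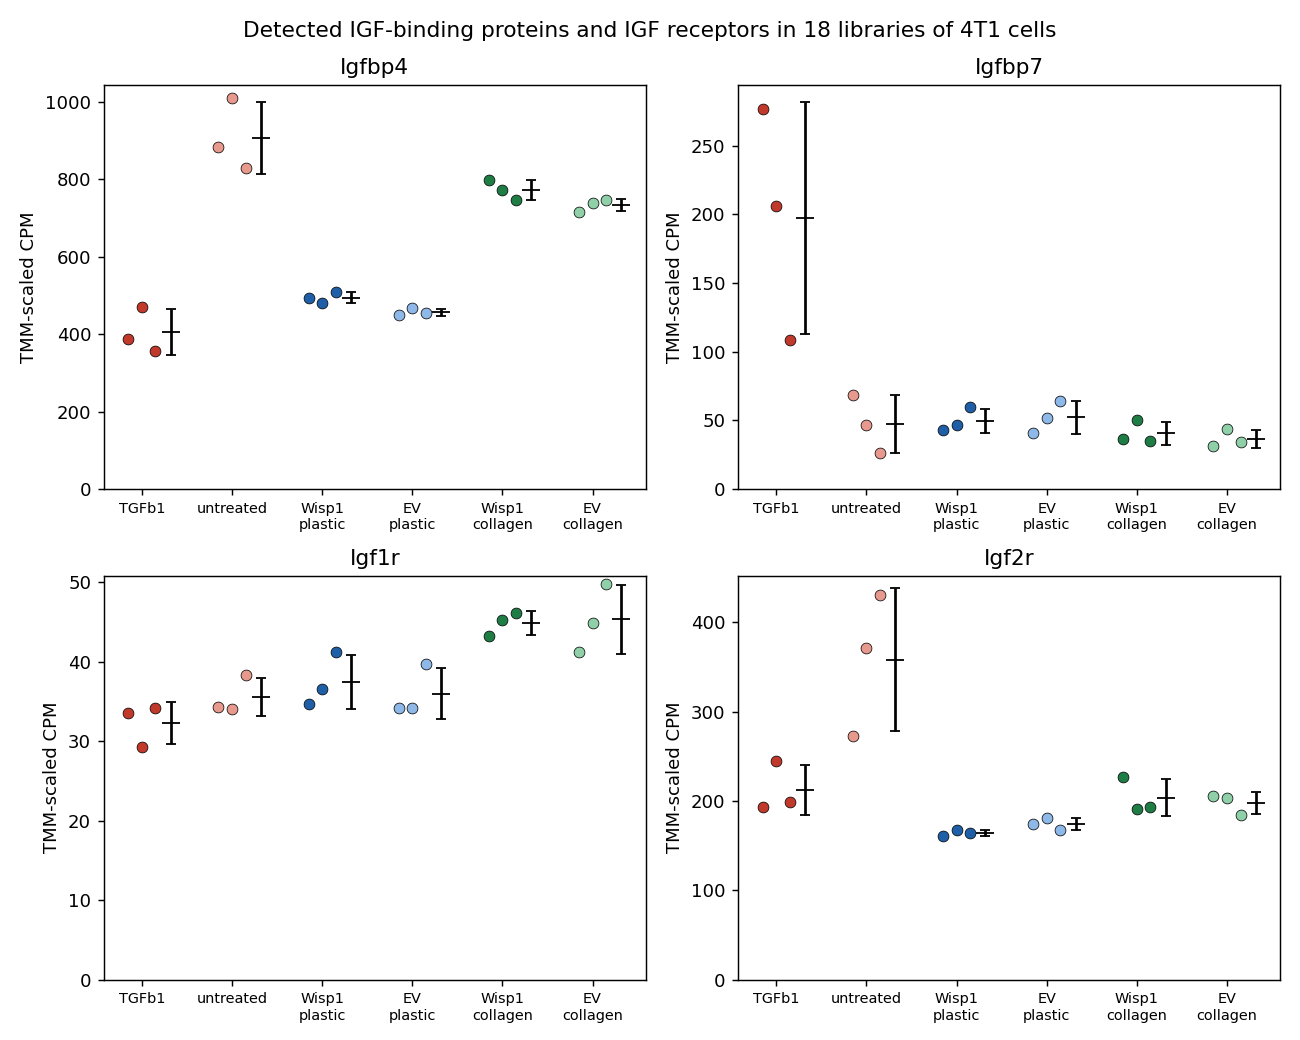
TMM-scaled CPM of Igfbp4, Igfbp7, Igf1r and Igf2r in each library, by group; each point is 1 library and the bar beside it is the mean ± SD of 3. Igfbp7 was highest in the 3 TGFb1 libraries (109 to 276 CPM), Igfbp4 and Igf2r were highest in untreated cells, and Igf1r stayed between 29.3 and 49.8 CPM in all 18 libraries.

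The first comparison asked how parental cells responded to TGFb1. With TGFb1 the 2 abundant binding-protein genes moved in opposite directions, and Igf1r did not pass the test. Igfbp4 fell 2.22-fold and Igfbp7 rose 4.2-fold, both past an adjusted p of 0.05. Without a block, 2 of the 6 members that passed the filter on low counts were called, 1 higher and 1 lower. Of the 14874 genes tested, 11.1% were called. Testing was by edgeR's quasi-likelihood test with Benjamini-Hochberg adjustment over all genes tested, here and below.

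Igfbp4 encodes the binding protein that PAPP-A cleaves in the presence of IGFs. It had 388, 471 and 355 CPM with TGFb1, against 882, 1010 and 829 CPM in untreated cells. Every TGFb1 library was below every untreated library, and the log2 change was -1.15 ± 0.13 (SE; adjusted p = 0.00548). The call held in 6 of 6 fits that left out a library, and over all other settings the adjusted p ran from 2.12e-11 to 0.0332.

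Igfbp7 encodes a secreted protein also known as IGFBP-rP1 or angiomodulin. It had 276, 206 and 109 CPM with TGFb1, against 68.3, 46.6 and 26.2 CPM in untreated cells. The lowest TGFb1 library lay above the highest untreated library, and the log2 change was 2.07 ± 0.44 (SE; adjusted p = 0.0313). The same-numbered cultures, which share a code in the labels, ranked alike in both groups, and their log2 differences were 2.02, 2.15 and 2.05. With that code as a block the adjusted p was 4.78e-06, while leaving out a library gave 0.0618 without TGFb1 replicate 1, 0.108 without TGFb1 replicate 2, 0.131 without untreated replicate 2 and 0.06 without untreated replicate 3. Over all settings it ran from 4.78e-06 to 0.131. An exon of Polr2b, an RNA polymerase II subunit gene, overlaps an Igfbp7 exon on the opposite strand in GENCODE M21, and whether counting used strand is not given in the sources used here. Polr2b averaged 175 ± 15 CPM with TGFb1 and 167 ± 7.99 CPM in untreated cells (log2 change 0.09 ± 0.10, adjusted p = 0.683). The fibroblast markers Col1a1 (log2 change 3.11, adjusted p = 0.0403) and Pdgfrb (3.00, adjusted p = 0.0262) were also higher with TGFb1, at 8.51 and 1.67 CPM, against 0.985 and 0.209 CPM in untreated cells. Of 5 fibroblast genes tested 2 rose and 0 fell, and the part of these markers in the Igfbp7 change was not tested. In bulk RNA, fewer cells of a type and less RNA per cell cannot be told apart.

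**Figure D2:**
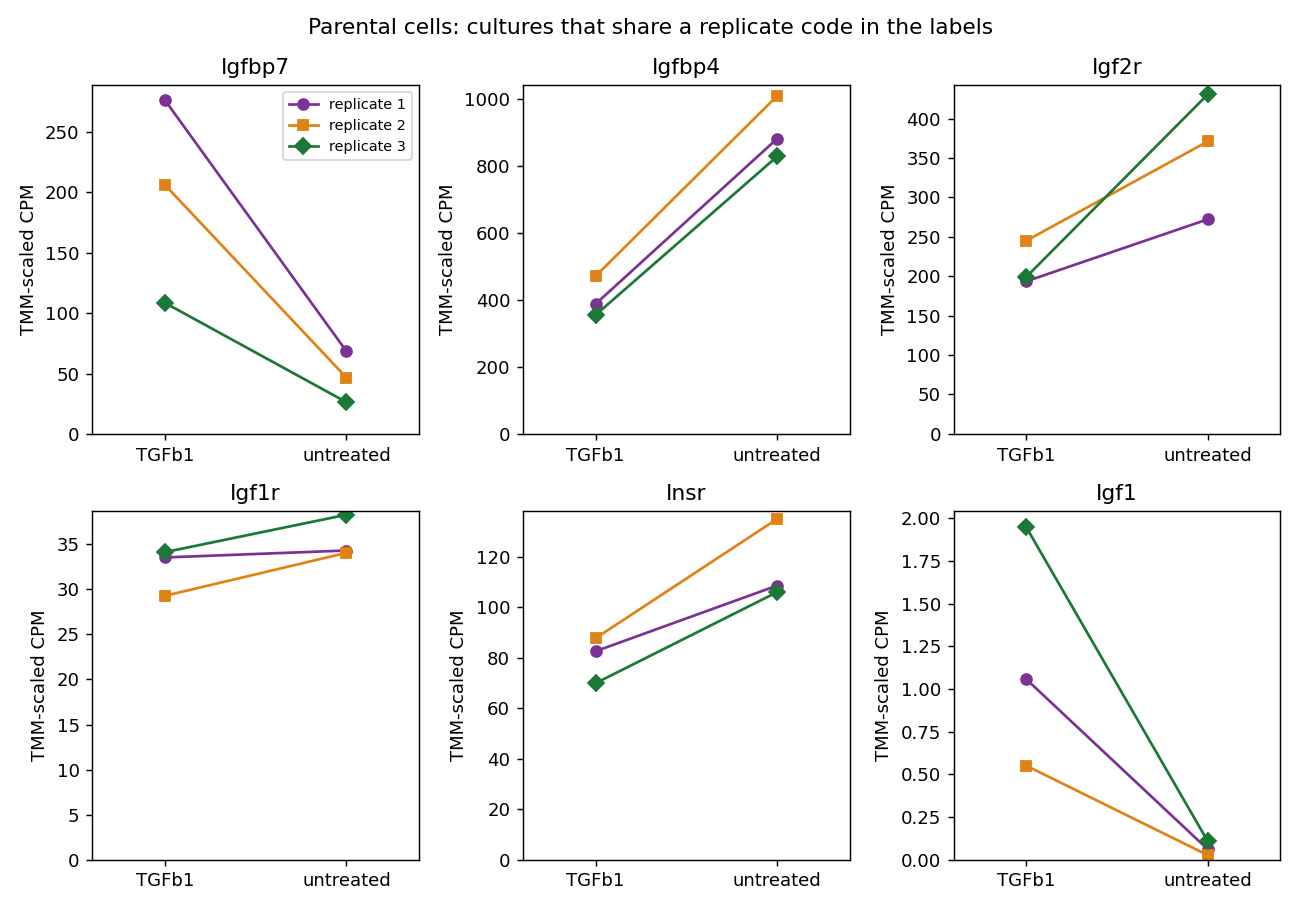
TMM-scaled CPM of 6 genes in parental cells with TGFb1 (left) and untreated (right); lines join the 3 pairs of cultures that share a code in the labels. Igfbp7 and Igf1 are higher and Igfbp4, Igf2r, Igf1r and Insr lower with TGFb1 in each of the 3 pairs.

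Igf2r, the mannose 6-phosphate and IGF2 receptor, had 193, 245 and 199 CPM with TGFb1, against 272, 371 and 431 CPM in untreated cells. The groups did not overlap, yet the log2 change of -0.74 ± 0.18 missed the threshold (SE; adjusted p = 0.0506). With the shared code as a block the adjusted p was 0.003, in DESeq2 0.00433 and without untreated replicate 1 0.0253, and over all settings it ran from 0.000455 to 0.172. Igf1r, the signalling receptor, had 33.5, 29.3 and 34.1 CPM with TGFb1, against 34.3, 34.1 and 38.3 CPM in untreated cells. These groups overlapped, and the log2 change was -0.13 ± 0.12 (SE; adjusted p = 0.596), with a 95% interval of -0.40 to 0.15. The block by shared code brought the count of called members to 4, with 1 higher and 3 lower: Igfbp7, and Igfbp4, Igf2r and Igfbp6.

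The other binding-protein genes sat near the limit of detection in parental cells. Igfbp6, which prefers IGF2 over IGF1, had 17, 6 and 1 counts with TGFb1, against 40, 18 and 22 counts in untreated cells (log2 change -1.73 ± 0.75, SE; adjusted p = 0.216). Under the block its adjusted p was 0.0167, the lowest of a range up to 0.503. Igfbp2 had 3, 14 and 8 counts with TGFb1, against 12, 11 and 7 in untreated cells, and the log2 change of -0.25 ± 0.58 had an adjusted p of 0.862. Igfbp3, the main carrier of IGFs in the circulation, had 0, 1 and 1 counts with TGFb1, against 0, 0 and 1 in untreated cells. Igfbp5, which binds extracellular matrix as well as IGFs, had 8, 5 and 2 counts with TGFb1, against 3, 3 and 5 in untreated cells. Igfbp3 and Igfbp5 did not pass the filter and were not tested, so a change in either was not detectable at this depth. Igfbp1, a liver-enriched relative that is not among the 8, had 0 counts in all 18 libraries.

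**Figure D3:**
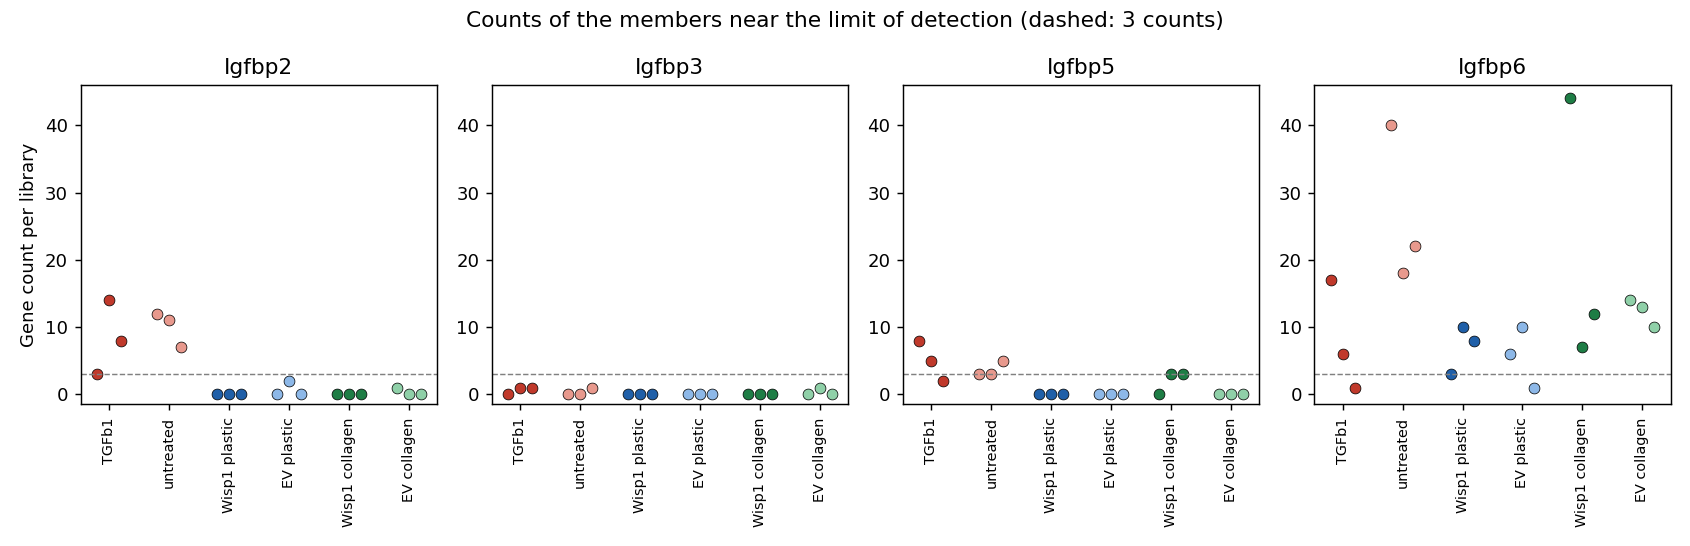
Gene counts per library of Igfbp2, Igfbp3, Igfbp5 and Igfbp6 in the 6 groups; each point is 1 library and the dashed line marks 3 counts. Igfbp3 never exceeds 1 count and Igfbp5 8 counts, and Igfbp2 reaches 3 counts or more in parental libraries alone. Igfbp6 ranges from 1 count, below the dashed line, to 44 counts over the 18 libraries.

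Among the ligands, Igf1 rose with TGFb1 from a level near the floor. It had 88, 48 and 140 counts with TGFb1, against 5, 2 and 9 counts in untreated cells (log2 change 4.17 ± 0.69, SE; adjusted p = 0.0144). Its mean level stayed low, at 1.19 CPM with TGFb1 and 0.0645 CPM in untreated cells, and the call ended without untreated replicate 2 (adjusted p = 0.0706). Igf2 had 10, 6 and 7 counts with TGFb1, against 2, 4 and 3 in untreated cells, and did not pass the filter. Ins1 and Ins2 had 0 counts in every library. Insr, the insulin receptor that can pair with IGF1R in hybrid receptors, had 82.5, 87.7 and 69.9 CPM with TGFb1, against 109, 135 and 106 CPM in untreated cells. Its log2 change of -0.53 ± 0.13 missed the threshold (SE; adjusted p = 0.0525), and with the block by shared code the adjusted p was 0.000482.

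The lists of the signalling arm are given beside the 11.1% of all genes tested that were called with TGFb1 in the fit without a block. With the block by shared code 6672 of 14874 genes were called, against 1645 without it. The lists were not counted again under that block, so their counts with TGFb1 hold for the unblocked fit only. Of 13 receptor and adaptor genes tested, 1 rose and 0 fell: Sh2b2, an adaptor of the insulin receptor, averaged 15 ± 3.26 CPM with TGFb1 and 6.53 ± 0.768 CPM in untreated cells (adjusted p = 0.0166). Of 21 genes of the PI3K and AKT arm, 2 rose and 0 fell. Foxo1, a forkhead factor that AKT excludes from the nucleus, averaged 40.9 ± 8.51 CPM with TGFb1 and 22 ± 3.22 CPM in untreated cells (adjusted p = 0.0307). Pik3cb, a catalytic PI3K subunit, averaged 74.2 ± 2.42 CPM with TGFb1 and 56.7 ± 4.13 CPM in untreated cells (adjusted p = 0.0474). The calls of Sh2b2 and Foxo1 held in 2 of the 6 fits that left out a library, and that of Pik3cb in 0. Their adjusted p over all settings ran from 1.15e-06 to 0.0674 for Sh2b2, 5.3e-05 to 0.136 for Foxo1 and 0.000412 to 0.192 for Pik3cb. The 3 lists of ligands, adaptors and PI3K genes had median log2 changes of 4.17, -0.25 and 0.04, against -0.01 over all genes tested, the first resting on Igf1 alone.

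The next list held genes that cut binding proteins or check those proteases. Of 8 tested, 3 rose and 0 fell with TGFb1, and the median log2 change was -0.56. Adam12, a metalloproteinase whose human form can cut IGFBP3 and IGFBP5, averaged 206 ± 3.19 CPM with TGFb1 and 36.5 ± 7 CPM in untreated cells (5.68-fold, adjusted p = 0.00137). That call held in 6 of 6 fits that left out a library. Htra1, a secreted serine protease with an IGFBP-type module, averaged 467 ± 45.3 CPM with TGFb1 and 344 ± 13 CPM in untreated cells (adjusted p = 0.028), a call that held in 1 of those 6 fits. Its adjusted p over all settings ran from 0.000551 to 0.132.

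Other genes with an IGFBP-type module counted 4 higher and 1 lower of 10 tested, with a median log2 change of 0.23. Wisp1 itself averaged 419 ± 172 CPM with TGFb1 and 22.4 ± 15.8 CPM in untreated cells (18.7-fold, adjusted p = 0.00961), and Ctgf 691 ± 370 CPM with TGFb1 and 117 ± 56.9 CPM in untreated cells (adjusted p = 0.0221). Nov, a CCN gene that moved the other way, averaged 0.21 ± 0.0774 CPM with TGFb1 and 1.86 ± 0.695 CPM in untreated cells (adjusted p = 0.00903). The calls held in 5 of 6 fits that left out a library for Wisp1 and Nov and in 3 for Ctgf. The adjusted p of Ctgf over all settings ran from 5.1e-07 to 0.109. Of 11 genes that act with Igf2r in mannose 6-phosphate sorting, 0 passed the test without a block in either direction. Their median log2 change was 0.04. Airn, the antisense noncoding RNA that starts inside Igf2r and represses its paternal copy in mouse tissues, had 41, 41 and 28 counts with TGFb1, against 91, 126 and 217 counts in untreated cells (log2 change -1.96 ± 0.38, SE; adjusted p = 0.023). Its call held in 1 of 6 fits that left out a library, and its adjusted p over all settings ran from 4e-05 to 0.103. Airn and Igf2r were both lower with TGFb1, and Airn counts amounted to 0.192 to 0.255% of Igf2r counts with TGFb1 and 0.401 to 0.6% in untreated cells. Without a known strand setting, reads of Airn and Igf2r cannot be told apart where the 2 transcripts overlap. In GENCODE M21 no exon of another gene was found to overlap an Igf2r exon, but which annotation was counted is not given.

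Next, the stable lines were compared for the effect of the Wisp1 vector. Without a block, no member passed the test with the Wisp1 vector on either substrate. On plastic 0 of 5 tested members were called, where 0.0143% of 13953 genes were, and on collagen 0 of 5, where 0.0717% were. At an unadjusted p under 0.05 there were 822 genes on plastic and 707 on collagen, and DESeq2 called 18 and 40. With the replicate number as a block within each substrate, edgeR called 440 genes on plastic and 358 on collagen. Of the members, Igfbp4 alone passed under that block, on plastic (adjusted p = 0.0229).

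In the unblocked fit Igfbp4 came nearest to the threshold. It had 493, 481 and 508 CPM in Wisp1 cells, against 448, 467 and 454 CPM in EV cells on plastic. All 3 Wisp1 libraries lay above all 3 EV libraries, with a log2 change of 0.12 ± 0.04 (SE; adjusted p = 0.701; unadjusted p = 0.00542). The libraries of the lines deviate together by replicate number on each substrate, and with that number as a block the adjusted p was 0.0229, the lowest of a range up to 1. On collagen it had 799, 772 and 747 CPM in Wisp1 cells, against 715, 738 and 747 CPM in EV cells, and these groups touched (log2 change 0.08 ± 0.04, SE; adjusted p = 0.973). The other tested members did not pass the test on either substrate. Igfbp7 averaged 49.7 ± 8.68 CPM in Wisp1 and 52.1 ± 11.7 CPM in EV on plastic, and 40.6 ± 8.31 CPM in Wisp1 and 36.3 ± 6.44 CPM in EV on collagen. The 95% intervals of its log2 change were -0.52 to 0.39 on plastic and -0.30 to 0.62 on collagen. Igf2r averaged 164 CPM in Wisp1 (161 to 168) and 174 CPM in EV (167 to 181) on plastic, and these groups overlapped. The intervals of Igf1r were -0.11 to 0.23 and -0.18 to 0.15, and those of Igf2r -0.22 to 0.05 and -0.09 to 0.18. As folds, the intervals of these 2 receptors ran from 0.86 at the lowest to 1.17 at the highest over both substrates. Igfbp6 had 3, 10 and 8 counts in Wisp1 and 6, 10 and 1 in EV on plastic, and 44, 7 and 12 counts in Wisp1 and 14, 13 and 10 in EV on collagen, too few to bound its change closely (95% intervals -0.93 to 2.28 and -0.21 to 2.02). The Wisp1 effect on collagen minus that on plastic, an interaction, called 0 members and 0.0% of all genes, although 410 genes had an unadjusted p under 0.05 and DESeq2 called 1. For the members it was -0.04 ± 0.05 for Igfbp4, 0.22 ± 0.29 for Igfbp7, -0.08 ± 0.11 for Igf1r, 0.13 ± 0.09 for Igf2r and 0.23 ± 0.94 for Igfbp6 (log2, SE). Of the related lists, 1 of 8 tested genes with an IGFBP-type module was called with the Wisp1 vector on each substrate, and that gene was Wisp1. In the fit without a block, 0 genes of the ligand, adaptor, PI3K, protease and sorting lists were called on either substrate. With the replicate number as a block within each substrate, Insr passed on plastic (log2 change -0.12, adjusted p = 0.0464, the lowest of a range up to 1). It averaged 57.9 ± 1.99 CPM in Wisp1 and 63.2 ± 2.76 CPM in EV there, and the groups did not overlap.

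The next comparison set growth on type I collagen against plastic. On collagen Igfbp4, Igf1r and Igf2r rose in both stable lines, and Igfbp7 did not pass the test in either. Of 5 tested members 3 rose and 0 fell in each line, where 36.5% of all genes were called in EV (19.2% higher) and 40.4% in Wisp1 (21.3% higher). The comparisons of the 2 lines share no library, though each shares libraries with the Wisp1 comparisons. In both lines the prefix of the sample titles also differs between plastic and collagen, as it does between all groups. No label says what it marks, and its part cannot be told apart from that of the substrate. The fibroblast marker sum, most of it Pdgfra, also differed by substrate, at 25.7 to 30.8 CPM on collagen and 16.8 to 23 CPM on plastic in EV, and 26.8 to 33.9 CPM on collagen and 17 to 19.2 CPM on plastic in Wisp1. Of the 4 fibroblast genes tested, Pdgfra rose in both lines and Col1a2 fell in both (log2 change -1.43 in EV and -1.58 in Wisp1), while Col3a1 fell in EV (-1.56). The median log2 change of those 4 genes was -0.43 in EV and -1.10 in Wisp1. Leukocyte markers summed to 7.08 to 9.44 CPM on collagen and 4.996 to 6.52 CPM on plastic in EV, and to 9.21 to 9.95 CPM on collagen and 5.19 to 7.13 CPM on plastic in Wisp1, with 1 of 5 tested genes called higher in each line (Emr1 in EV and Cd68 in Wisp1). The epithelial sum was 3946 to 4334 CPM on collagen and 3364 to 3763 CPM on plastic in EV, and 3809 to 5002 CPM on collagen and 3376 to 3773 CPM on plastic in Wisp1. None of these 3 sums overlapped between substrates in either line, and the part of these markers in the results was not tested.

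Igfbp4 had 715, 738 and 747 CPM on collagen, against 448, 467 and 454 CPM on plastic in the EV line (log2 change 0.69 ± 0.04, SE; adjusted p = 2.04e-08). In the Wisp1 line it had 799, 772 and 747 CPM on collagen, against 493, 481 and 508 CPM on plastic (0.65 ± 0.04, SE; adjusted p = 3.64e-08). The groups were far apart in both lines, with folds of 1.61 and 1.57, and no setting ended either call. Igf1r had 41.2, 44.9 and 49.8 CPM on collagen, against 34.1, 34.1 and 39.6 CPM on plastic in EV (log2 change 0.34 ± 0.08, SE; adjusted p = 0.00351). In Wisp1 it had 43.1, 45.2 and 46.1 CPM on collagen, against 34.6, 36.5 and 41.2 CPM on plastic (0.26 ± 0.08, SE; adjusted p = 0.015). The collagen libraries lay above the plastic ones in both lines. The call in Wisp1 ended without Wisp1 plastic replicate 1 (adjusted p = 0.0729) or 2 (0.0541), in a range over all settings of 0.000507 to 0.113.

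Igf2r had 206, 203 and 184 CPM on collagen, against 175, 181 and 167 CPM on plastic in EV (log2 change 0.19 ± 0.06, SE; adjusted p = 0.0275). In Wisp1 it had 227, 191 and 193 CPM on collagen, against 161, 168 and 164 CPM on plastic (0.32 ± 0.06, SE; adjusted p = 0.00122). The groups did not overlap in either line. The call in EV ended without EV collagen replicate 1 (adjusted p = 0.0968) or 2 (0.102) and without EV plastic replicate 1 (0.0533) or 3 (0.0938), and over all settings it ran from 0.00769 to 0.487. Igfbp7 had 31.1, 43.5 and 34.4 CPM on collagen, against 40.4, 51.9 and 63.9 CPM on plastic in EV (log2 change -0.51 ± 0.20, SE; adjusted p = 0.0752). It had 36.3, 50.2 and 35.3 CPM on collagen, against 43.1, 46.5 and 59.5 CPM on plastic in Wisp1 (-0.29 ± 0.21, SE; adjusted p = 0.292). The substrates overlapped in both lines, and in EV the adjusted p ran from 0.0365 to 0.334 over all settings, passing without EV plastic replicate 1 and without EV collagen replicate 2. Polr2b, the overlapping gene, fell on collagen by 0.21 on the log2 scale in EV and by 0.26 in Wisp1. Igfbp6 had 14, 13 and 10 counts on collagen and 6, 10 and 1 on plastic in EV, and 44, 7 and 12 counts on collagen and 3, 10 and 8 on plastic in Wisp1, with adjusted p of 0.356 and 0.169. Igfbp2 and Igfbp5 did not pass the filter: Igfbp2 had 1, 0 and 0 counts on collagen and 0, 2 and 0 on plastic in EV and 0 in all 6 Wisp1 libraries, and Igfbp5 had 0 in all 6 EV libraries, 0, 3 and 3 counts on collagen in Wisp1 and 0 on plastic. Igfbp3 had 1 count in 1 EV collagen library and 0 in the other 11 libraries of the stable lines.

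**Figure D4:**
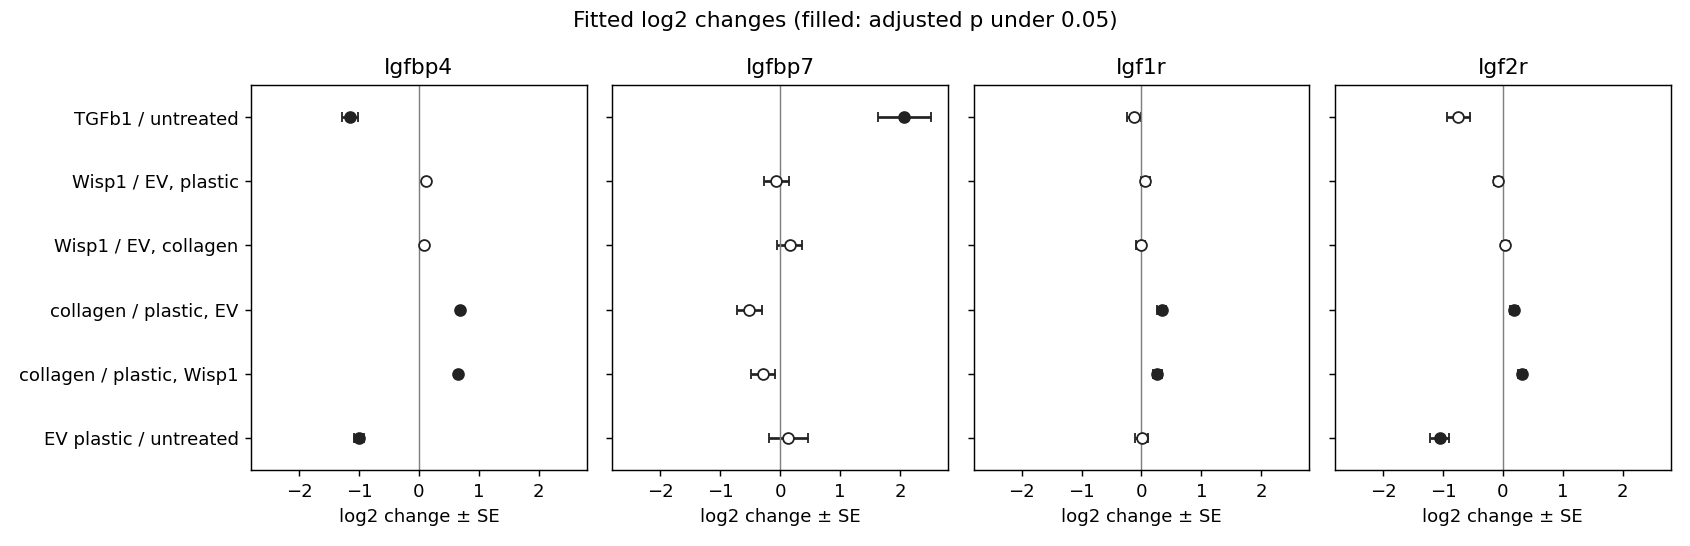
Fitted log2 changes of Igfbp4, Igfbp7, Igf1r and Igf2r in 6 comparisons, as points with SE; filled points passed an adjusted p of 0.05. Igfbp4 is lower with TGFb1 (-1.15) and in EV against untreated cells (-1.005) and higher on collagen (0.69 and 0.65), and Igfbp7 passed with TGFb1 alone (2.07).

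Receptor partners moved on collagen too. Insr rose with a log2 change of 0.28 ± 0.04 in EV (adjusted p = 0.000256) and 0.38 ± 0.04 in Wisp1 (adjusted p = 2.55e-05). Of 12 receptor and adaptor genes tested, 5 rose and 3 fell in EV and 6 rose and 2 fell in Wisp1, with median log2 changes of 0.14 and 0.23 against 0.00 and 0.01 over all genes. Ptpn1, a phosphatase that dephosphorylates the insulin receptor, averaged 90.4 ± 3.19 CPM on collagen and 66.6 ± 4.09 CPM on plastic in EV (adjusted p = 1.52e-05), and 89.1 ± 4.82 CPM and 71.6 ± 3.28 CPM on those substrates in Wisp1 (adjusted p = 0.000202). Irs2, a docking protein of both receptors, moved the other way, at 22.6 ± 0.957 CPM on collagen and 35.6 ± 5.98 CPM on plastic in EV, and 22.1 ± 3.25 CPM on collagen and 35 ± 2.65 CPM on plastic in Wisp1 (adjusted p = 0.000666 and 0.000653). Of 21 PI3K and AKT genes, 9 rose and 3 fell in EV and 8 rose and 6 fell in Wisp1. Pik3r2, a regulatory PI3K subunit, rose (log2 change 0.44 in EV and 0.49 in Wisp1), as did Rptor, the raptor subunit of mTORC1 (0.38 and 0.37), while the catalytic subunit gene Pik3cb fell by 0.47 in EV and by 0.50 in Wisp1. The adjusted p of these 6 changes ran from 1.42e-05 to 4.47e-05.

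In the protease list, 2 of 8 rose and 3 fell in EV, and 3 rose and 2 fell in Wisp1. Plau, the urokinase gene, averaged 171 ± 13.1 CPM on collagen and 92.7 ± 9.15 CPM on plastic in EV (adjusted p = 5.47e-05). Stanniocalcins inhibit PAPP-A, the protease of IGFBP4: Stc2 fell in EV (log2 change -0.54, adjusted p = 0.000865) and Stc1 rose in Wisp1 (0.86, adjusted p = 0.00426). Each is named only in the line where it was among the called genes with the smallest p. In the edgeR fit of all 18 libraries neither passed (adjusted p = 0.211 for Stc2 and 0.307 for Stc1). The interaction called 0 of the 8 protease genes tested, so a difference between the lines was not shown. Pappa, the gene of PAPP-A itself, had at most 3 counts in any of the 18 libraries. Of 11 mannose 6-phosphate sorting genes, 6 rose and 0 fell in EV and 5 rose and 0 fell in Wisp1, with median log2 changes of 0.15 and 0.10. They included Gnptg, a subunit of the enzyme that builds the tag (0.69 in EV and 0.60 in Wisp1), and Ap1m1, an adaptor subunit for clathrin coats (0.33 and 0.20). Airn counts on collagen were 77, 79 and 103, against 41, 59 and 43 on plastic in EV (log2 change 0.54, adjusted p = 0.0315), and 125, 59 and 53 on collagen against 29, 26 and 41 on plastic in Wisp1 (0.82, adjusted p = 0.00442). Its call in EV held in 2 of 6 fits that left out a library and that in Wisp1 in 6 of 6. Wisp1 in the EV line averaged 15.5 ± 1.13 CPM on collagen and 51.6 ± 17.9 CPM on plastic (log2 change -1.72, adjusted p = 0.000131).

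Untreated parental cells and the EV line on plastic both carried no added Wisp1, and their levels place the parental and stable groups side by side. Igfbp4 and Igf2r were lower in the EV line, while Igf1r and Igfbp7 did not pass the test. Of 5 tested members 2 fell and 0 rose, where 43.4% of 14476 genes were called and 23.8% were lower. Transduction, selection, medium change and the prefix of the sample titles differ together between these groups and cannot be told apart. Igfbp4 had 448, 467 and 454 CPM in EV, against 882, 1010 and 829 CPM in untreated cells (log2 change -1.005 ± 0.08, SE; adjusted p = 0.000467). For Igf2r the values were 175, 181 and 167 CPM in EV, against 272, 371 and 431 CPM in untreated cells (-1.06 ± 0.16, SE; adjusted p = 0.00257). The groups did not overlap for either gene. This comparison shares the untreated libraries with that of TGFb1, where the same 2 genes had log2 changes of -1.15 and -0.74. The fibroblast marker sum, most of it Pdgfra, was 16.8 to 23 CPM in EV and 36.1 to 59.5 CPM in untreated cells. Of its 4 tested genes Pdgfra fell (log2 change -1.44), while Col1a2 (1.56) and Col3a1 (1.96) rose, and their median log2 change was 0.40. The epithelial sum was 3364 to 3763 CPM in EV and 3830 to 5886 CPM in untreated cells, and the leukocyte sum was 4.996 to 6.52 CPM in EV and 4.14 to 12.4 CPM in untreated cells, with 2 of 4 tested leukocyte genes higher and 1 lower. The part of these markers was not tested. Igf1r averaged 36 ± 3.18 CPM in EV and 35.6 ± 2.37 CPM in untreated cells, with a 95% interval of the log2 change of -0.25 to 0.25, and Igfbp7 averaged 52.1 ± 11.7 CPM and 47 ± 21.1 CPM in those groups (adjusted p = 0.752). Igfbp6 had 6, 10 and 1 counts in EV, against 40, 18 and 22 in untreated cells (log2 change -1.72 ± 0.60, SE; adjusted p = 0.0515), and it passed without untreated replicate 3 (0.044). Igfbp2 had 0, 2 and 0 counts in EV, against 12, 11 and 7 in untreated cells, and Igfbp5 0 in all 3 EV libraries, against 3, 3 and 5 in untreated cells. Insr was also lower in EV (log2 change -0.89 ± 0.11, SE; adjusted p = 0.00113), and Igf1 was higher (2.04 ± 0.55, SE; adjusted p = 0.0214), a call that held in 3 of 6 fits that left out a library. Of 13 adaptors 2 rose and 5 fell, of 21 PI3K and AKT genes 3 rose and 2 fell, of 8 protease genes 3 rose and 2 fell and of 11 sorting genes 3 rose and 1 fell.

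Ordered by group mean, Igfbp4 ran from untreated (907 CPM) through Wisp1 collagen (772), EV collagen (733), Wisp1 plastic (494) and EV plastic (456) to TGFb1 (405). Libraries of Wisp1 collagen and EV collagen overlapped, as did those of EV plastic and TGFb1, and the other neighbours did not. For Igf2r the order was untreated (358 CPM), TGFb1 (212), Wisp1 collagen (204), EV collagen (198), EV plastic (174) and Wisp1 plastic (164). Untreated stood apart from TGFb1 and EV collagen from EV plastic, and the other neighbours overlapped. Igfbp7 stood apart with TGFb1 (197 CPM), and the 5 other groups, from 52.1 CPM in EV plastic to 36.3 CPM in EV collagen, each overlapped their neighbour. Igf1r ran from 45.3 CPM in EV collagen to 32.3 CPM with TGFb1, where the only gap lay between Wisp1 collagen and Wisp1 plastic.

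Igfbp7 was the member whose 6 group means spanned at least 4-fold among those with counts in every library. Its profile over the 18 libraries was compared with those of 9416 genes with a mean of at least 5 CPM. Most clone-type symbols had been left out of these, but not those that start with AU. By Pearson correlation of log2(CPM + 1), the most similar were Klhdc8a (r = 0.974), Fam132b (0.97) and AU018091 (0.968). Klhdc8a averaged 11 ± 2.55 CPM with TGFb1 and 5.19 ± 1.81 CPM in untreated cells, and Fam132b, the gene of the iron hormone erythroferrone, 153 ± 68.2 CPM with TGFb1 and 52.4 ± 31.3 CPM in untreated cells. AU018091, a gene with a clone name, averaged 22.7 ± 11.8 CPM with TGFb1 and 5.97 ± 2.84 CPM in untreated cells. The points share the 6 groups and their libraries, so these correlations describe the profiles only.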

How the data were processed

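Poly(A)-selected RNA of 18 cultures of 4T1 cells was sequenced with a stranded library kit, per the labels' protocols. Named in the submitters' processing notes, without roles, are HTSeq, STAR, BWA, CASAVA, limma, R 3.2.4 and the build mm9. Which annotation was counted, and whether by strand, is not given in the sources used here. Each deposited file holds unnormalized counts per gene symbol for 1 sample. Entries outside genes (10.2 to 13.5% of counted reads), ambiguous (1.02 to 2.08%) and not aligned (1.84 to 3.47%) were left out. No mm9 coordinates are given.

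The members and lists were chosen with earlier results of these data known. Genes were tested with edgeR 4.0.16 (R 4.3.3; filterByExpr, TMM, robust quasi-likelihood F test), in 1 fit of the 6 parental libraries, 1 of the 12 stable-line libraries and 1 of EV plastic with untreated cells, and called at a Benjamini-Hochberg adjusted p under 0.05 over all genes tested. SE was taken as the absolute log2 change divided by the root of F. CPM used TMM factors from all 18 libraries together. The floor of 3 counts and the intervals cover counting error or the spread between cultures only. Per-kilobase levels use the longest coding transcript in GENCODE M21. Promoter windows come from RefSeq (GRCm38.p6), in which all 8 members matched by symbol. Some of the edgeR fits were tested on simulated counts, drawn without effects shared by replicate number, so that test cannot speak to pairing. Named were all members, Igfbp1, Igf1, Igf2, Insr, Wisp1 and, per list, up to 3 called genes with the smallest p and 1 that moved the other way. Polr2b was added after its overlap was seen. Of the protease list, 1 gene is not reported here by name.

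Same-numbered libraries were checked for pairing by correlating their deviations from the group means over 10511 genes. The parental numbers follow codes in the titles (0.867, 0.763 and 0.838), and those of Wisp1 and EV follow the titles' numbers (0.336, 0.529 and 0.504 on plastic; 0.794, 0.503 and 0.629 on collagen), so both were taken as paired. Libraries of the 2 substrates (-0.26 to 0.444) and of EV and untreated cells (-0.143 to 0.118) were not. Alternatives were DESeq2 1.42.0, limma-voom (limma 3.58.1), RLE scaling, other filters, other sets of libraries, replicate blocks and leaving out each library. Replicates differed by more than counting error, with chi-squared over its degrees of freedom of 3.25 to 213.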

Additional observations from a re-analysis of the deposited data

How the results depend on the processing

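Of 286 member values under other settings 272 kept their direction and side of the threshold, and of 246 with a library left out 214 did. With the replicate block, the count of called members with TGFb1 was 4 (1 higher, 3 lower) against 2 in the fit without a block, and with a library left out it ran from 1 to 3. With the block within each substrate 1 member was called for Wisp1 on plastic, and the blocks changed no other count of called members by over 1.5 times. The unpaired block over all 4 groups called Igfbp7 on collagen in EV (adjusted p = 0.0426). In the fit of all 18 libraries 1 member was called on collagen in Wisp1. Without a filter on low counts 4 members were called in EV against untreated cells, and with a library left out 2 to 4. The cause was not tested.

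Changes near 0 turned sign. For Igfbp6 the interaction was -0.10 by limma-voom and -0.14 with the block within each substrate, and Igf1r in EV against untreated cells was -0.0033 by limma-voom and -0.016 under a stricter filter. With a library left out, log2 changes ran as follows. With TGFb1, Igfbp2 ran from -0.74 to 0.16. For Wisp1 on plastic, Igf1 ran from -0.0016 to 0.62, Igf1r from -0.0078 to 0.14 and Igfbp7 from -0.21 to 0.11. For Wisp1 on collagen, Airn ran from -0.13 to 0.16, Igf1r from -0.072 to 0.051, Igf2r from -0.033 to 0.087 and Igfbp7 from -0.022 to 0.31. On collagen in EV, Igf1 ran from -0.13 to 0.61, the interaction of Igfbp6 from -0.57 to 0.69, and in EV against untreated cells Igf1r ran from -0.068 to 0.065 and Igfbp7 from -0.15 to 0.54. None of these passed the test.

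Over all genes, TGFb1 called 1645 genes, 2910 in DESeq2, 4865 in the fit of all 18 libraries, 6672 with the block and 380 to 1430 with a library left out. Wisp1 on plastic called 2, 18 in DESeq2, 440 with the block within each substrate, 1 under the stricter filter or in the fit of all 18 libraries and 0 in the fit of its 6 libraries. Wisp1 on collagen called 10, 40 in DESeq2, 32 without a filter, 6 under the stricter filter, 4 in the fit of all 18 libraries, 358 and 18 with the blocks and 2 in the fit of its 6 libraries. The fit of all 18 libraries called 1629 genes on collagen in EV and 2071 in Wisp1, and the interaction had 70 with the block. EV against untreated cells called 6276, and 3711 without EV plastic replicate 3. Depth limits Igfbp2, Igfbp3, Igfbp5 and Igfbp6.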

Other observations

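The IGF2 mRNA-binding proteins share the name of the set but are RNA-binding proteins inside the cell, and were looked at after the values were seen. Igf2bp1, an oncofetal member, had 28, 28.8 and 29.7 CPM on collagen, against 43.4, 43 and 40.9 CPM on plastic in EV. In Wisp1 it had 30.3, 30.4 and 30.9 CPM on collagen, against 46.3, 43.3 and 42.8 CPM on plastic. All collagen libraries lay below all plastic libraries, with log2 changes of -0.55 ± 0.05 and -0.52 ± 0.05 (SE; edgeR adjusted p = 1.71e-06 and 2.99e-06). It was higher in EV on plastic than in untreated cells (log2 change 0.85 ± 0.15, SE; adjusted p = 0.00439), and with TGFb1 it did not pass the test (0.77 ± 0.25, SE; adjusted p = 0.109). Igf2bp2, the abundant member, had log2 changes on collagen of -0.06 in EV and -0.07 in Wisp1, neither past the test. Igf2bp3 had 12 counts or fewer in every library.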
